A study of Mus musculus with 10 samples.

Results

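The clustered histone genes of mouse chromosome 13 are a stretch of 2.1 Mb that holds most genes for the replication-dependent histones. Its members here were all CpG cytosines of the deposited count table between fixed bounds on build mm10 that enclose the cluster: 2197 cytosines on 1487 CpGs, or 0.110% of the 1988759 cytosines measured. The first lay at chr13:21709621 and the last at chr13:23794560, 2085 kb apart. Each cytosine within 1000 bp of a histone gene end was given to the nearest of the 54 histone genes annotated there, 52 protein coding and 2 pseudogenes. This gave 575 cytosines at histone gene ends, 72 deep inside the long gene models of H2bc6 and H2bc4, and 1550 in the rest of the stretch. The testis-specific genes H2ac1 and H2bc1 lie just outside these bounds and were measured in the same way with 31 cytosines.

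DNA came from the testis of F2 mice, in 5 libraries labelled control group and 5 labelled arsenic group. The labels give no strain, age, dose or route, and do not say which generation received arsenic or whether the libraries of a group come from separate animals. The assay was reduced representation bisulfite sequencing (RRBS), which sequences CpG-rich restriction fragments after unmethylated cytosines have been converted to be read as thymine. A methylation level is the percentage of reads at a cytosine that were read as methylated. The libraries had 84812 to 116353 reads over the stretch, and median coverage per cytosine there was 30 to 39 reads in control and 37 to 42 in arsenic libraries. As a check of the tissue, 7 genes of male germ cells (Ddx4, Dazl, Mael, Sycp1, Sycp3, Hormad1 and Tex101) had mean levels of 14.1% to 32.6% at their ends. The sampled upstream region of H19, methylated on the paternal allele, was at 95.1% ± 3.21 in control and 95.5% ± 2.05 in arsenic libraries (SD, n = 5 each, 4 cytosines).

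Replication-dependent histone genes are short, mostly without introns, and are transcribed in S phase to supply the H2A, H2B, H3 and H4 of the nucleosome core and the linker histone H1. Their mRNAs end in a stem-loop bound by Slbp instead of a poly(A) tail. In the testis, spermatogenic cells add variants of their own: H1f6 encodes the linker histone H1t, and the neighbours H2ac1 and H2bc1 encode TH2A and TH2B, which precede the replacement of histones by protamines in sperm. CpG-rich promoters of widely expressed genes are usually unmethylated, and promoters of many germ cell genes are methylated in somatic cells.

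RRBS commonly cuts DNA at CCGG, though the enzyme used here is not given in the sources, and reads what lies beside the cuts, so promoter letters bear on which genes can be seen. RefSeq promoter windows on mm10, running from 250 bases before to 50 after the start, were found for 49 of the 54 genes, 50 windows in all. All 9 windows with a covered cytosine were among the 14 that hold CCGG, and 0 of the 36 windows without CCGG had one. Of the 133 covered cytosines in these windows, 133 fell on the base their strand calls for. The windows of H1f2 (chr13:23738557-23738856, plus strand) and H4c1 (chr13:23761200-23761499, minus strand) are shown since they hold covered CpGs at the loci that came closest to a difference between the groups, and capitals mark the covered CpGs.
H1f2: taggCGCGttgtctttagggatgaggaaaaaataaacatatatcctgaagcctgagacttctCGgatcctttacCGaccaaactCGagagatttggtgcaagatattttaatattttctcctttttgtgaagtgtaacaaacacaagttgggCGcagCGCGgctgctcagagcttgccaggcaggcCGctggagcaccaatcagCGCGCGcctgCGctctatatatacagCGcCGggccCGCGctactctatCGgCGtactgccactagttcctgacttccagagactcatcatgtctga
H4c1: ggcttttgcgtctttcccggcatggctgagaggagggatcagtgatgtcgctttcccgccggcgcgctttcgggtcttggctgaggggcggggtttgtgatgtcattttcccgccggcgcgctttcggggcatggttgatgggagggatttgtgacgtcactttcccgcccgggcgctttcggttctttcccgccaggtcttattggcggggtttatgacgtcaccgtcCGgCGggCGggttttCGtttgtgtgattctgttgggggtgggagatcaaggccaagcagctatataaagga
In H1f2 the capitals are 19 CpGs read at 38 cytosines, since both strands were covered, and they run from the far end of the window across the start. In H4c1 they are 4 CpGs near the start, read at 7 cytosines.

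The windows of H2bc14 (chr13:21721794-21722093, plus strand), H1f6 (chr13:23695561-23695860, plus strand) and H2bc1 (chr13:23934107-23934406, minus strand) are shown as a core gene without a covered promoter cytosine and as the testis-specific genes. Capitals here mark the motifs searched on both strands: ATTTGCAT (the octamer bound by Oct-1), the CCAAT box, the TATA box as TATAAA, and the site CCGG.
H2bc14: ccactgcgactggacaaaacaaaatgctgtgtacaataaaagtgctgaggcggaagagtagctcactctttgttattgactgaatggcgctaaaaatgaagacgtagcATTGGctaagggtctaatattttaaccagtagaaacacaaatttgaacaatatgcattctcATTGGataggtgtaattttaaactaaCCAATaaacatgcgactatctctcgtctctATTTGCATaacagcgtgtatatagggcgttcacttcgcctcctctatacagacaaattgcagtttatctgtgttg
H1f6: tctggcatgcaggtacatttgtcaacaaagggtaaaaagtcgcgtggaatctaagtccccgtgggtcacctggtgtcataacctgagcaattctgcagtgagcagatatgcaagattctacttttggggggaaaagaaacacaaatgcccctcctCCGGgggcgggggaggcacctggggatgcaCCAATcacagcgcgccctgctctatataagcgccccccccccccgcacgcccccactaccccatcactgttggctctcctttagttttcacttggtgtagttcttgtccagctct
H2bc1: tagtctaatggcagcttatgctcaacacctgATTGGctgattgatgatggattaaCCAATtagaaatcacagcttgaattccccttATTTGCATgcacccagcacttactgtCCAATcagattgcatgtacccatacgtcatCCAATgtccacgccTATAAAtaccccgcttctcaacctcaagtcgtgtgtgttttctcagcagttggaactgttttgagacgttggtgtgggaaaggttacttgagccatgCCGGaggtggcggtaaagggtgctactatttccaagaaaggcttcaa
None of these windows had a covered cytosine. The H2ac1 window lies on the opposite strand and shares 220 bases with that of H2bc1, and the octamer, TATAAA and CCAAT were present in both. Among the 49 windows of the cluster without H1f6, the octamer was found in 9, or 18.4%, of which 4 were H2A and 5 H2B windows, against 1.74% of all 32851 RefSeq windows. CCAAT was found in 83.7% of the cluster windows against 37.4% of all, and TATAAA in 59.2% against 13.6%. CCGG was found in 26.5% of the cluster windows against 52.8% of all, in 4 of 5 H1 and 7 of 11 H4 windows but in 0 of 12 H2A and 0 of 14 H2B windows. Windows of H2A and H2B genes that stand head to head overlap, so the same site can count for both genes. These counts are therefore not all of separate sequences.

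The families were not seen equally well. Of the 54 genes, 25 had an assigned cytosine and 23 had at least 3 covered CpGs, the minimum for a measured locus. Measured were 5 of 6 H1 genes, 1 of 14 H2A genes, 8 of 14 H2B genes, 2 of 9 H3 genes and 7 of 11 H4 genes. H2A is therefore represented by H2ac10 alone. The many H2A and H2B genes that stand head to head share cytosines: 33 of the 54 genes had a covered cytosine within 1000 bp when sharing was allowed, and 21 had none. H3c8, with 1 CpG, and H2ac8, with 2, fell under the minimum. H1f6 had no covered cytosine at all, so nothing can be said of H1t.

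The ends of the histone genes, linker H1 genes included, were almost free of methylation, in a stretch that was otherwise of mixed level. Averaged over its 575 cytosines, the level at histone gene ends was 3.95% ± 1.02 in control and 3.28% ± 0.847 in arsenic libraries (SD, n = 5 each). Control libraries 1 to 5 were at 4.16%, 2.97%, 2.81%, 4.68% and 5.11%, and arsenic libraries 1 to 5 at 2.28%, 2.63%, 4.34%, 3.28% and 3.86%. The groups overlapped, and the difference of -0.668 percentage points was smaller than either SD. It was -0.376 without control 5 and -0.0353 without control libraries 4 and 5. Of these cytosines 464, or 80.7%, had a mean under 5%, and only 1 reached 80%, against 26.7% and 48.0% of all cytosines in the table. All cytosines averaged 53.7% ± 0.447 in control and 53.4% ± 0.241 in arsenic libraries.

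**Figure D1:**
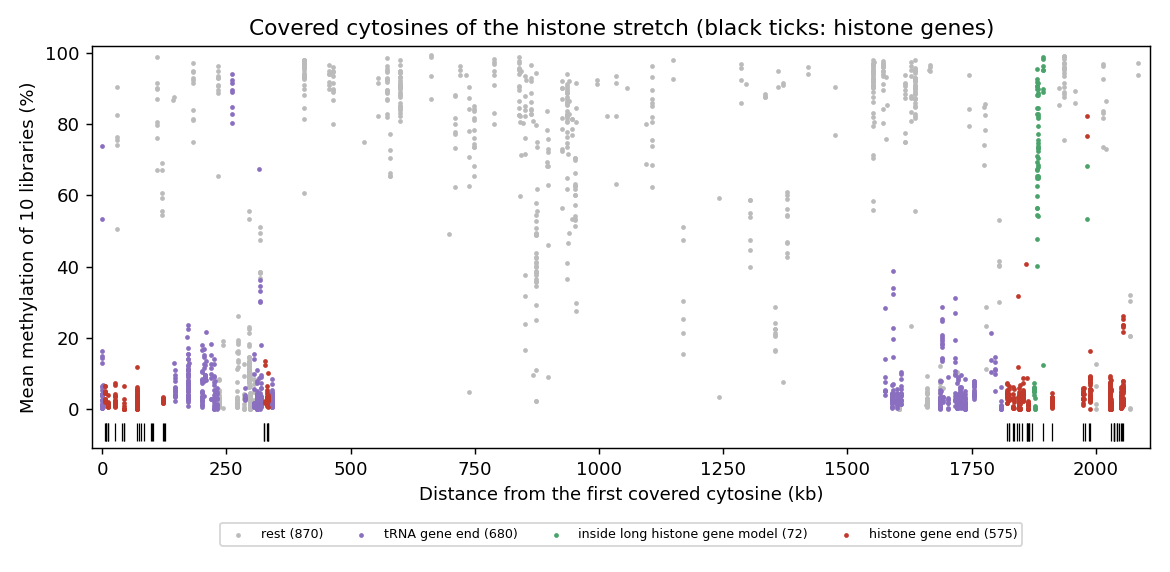
Mean methylation over 10 libraries (y axis, %) of the 2197 covered cytosines of the stretch against distance from the first of them (x axis, kb). Red points are histone gene ends, green points lie inside long histone gene models, purple points are at tRNA genes, grey points are the remainder, and black ticks are the 54 histone genes. Red and purple points gather near 0 and average 3.61% and 6.22%, while grey points average 55.7%.

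The histone genes fell into 3 blocks. The first, chr13:21715711-21837530, had 19 genes and a level of 2.41% ± 1.46 in control and 2.005% ± 1.11 in arsenic libraries at its gene ends (SD, n = 5 each). The second, chr13:22035122-22043658, had 5 genes and 4.20% ± 3.25 against 2.64% ± 1.42. The last, chr13:23531044-23764412, had 30 genes and 4.48% ± 0.923 against 3.81% ± 1.05. In each block the control and arsenic libraries overlapped. Within the first and last blocks, cytosines away from histone gene ends were at 75.1% and 65.9% over all libraries.

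The low level reached across the whole gene. By distance from the RefSeq start, cytosines of 9 genes in the 250 bp before it averaged 4.10%, those of 16 genes in the first 250 bp after it 2.80%, and those of 12 genes at 250 to 500 bp 2.30%. At 500 to 1000 bp before the start the level was 4.61%, and at 500 to 1000 bp after it 3.30%. Beyond, at 1000 to 1500 bp, 24 cytosines of 5 genes averaged 10.01%. In all 7 distance bins the control and arsenic libraries overlapped.

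**Figure D2:**
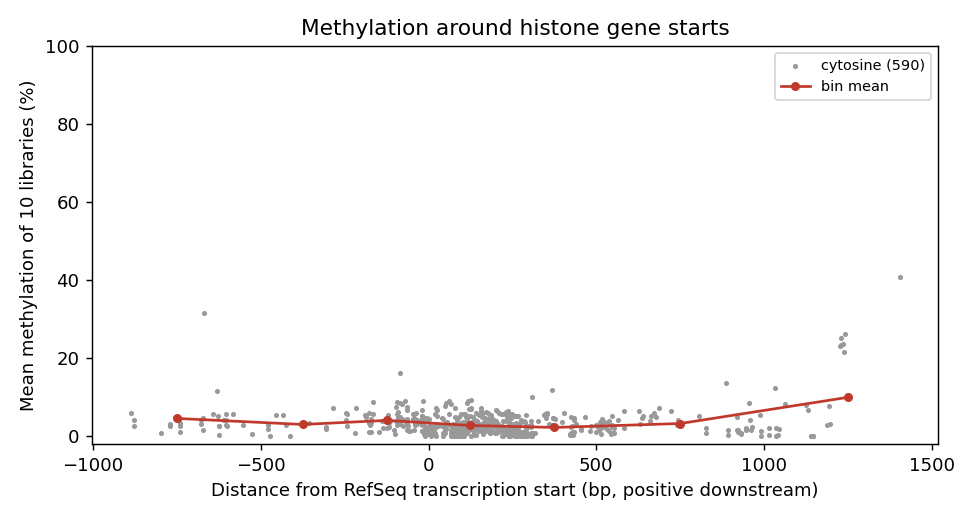
Mean methylation over 10 libraries (y axis, %) of single cytosines (grey points) against distance from the RefSeq start of the nearest histone gene (x axis, bp, positive downstream), with means of 7 distance bins at bin centres (red). The bin means stay between 2.30% and 4.61% from 1000 bp before to 1000 bp after the start, and the bin at 1000 to 1500 bp is at 10.01%.

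Of the 575 cytosines at gene ends 10 had a mean of 20% or more, and none of these lay within a histone gene of ordinary length. H1f1, which encodes the linker histone H1.1, had 6 of them, all between 482 and 498 bp past the gene, at 21.5% to 26.2%. H4c6 had 1, 668 bp from the gene, at 31.7%, and H2ac8 had 1, 848 bp from the gene, at 40.8%. The remaining 2, at 76.6% and 82.3%, were at the higher end of the long model of H2bc4.

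Both long gene models held a low and a high segment. At H2bc4 (chr13:23684199-23692480) the 18 cytosines near the lower end were at 3.89% over all libraries and the 2 near the higher end at 79.4%. H2bc6 spans chr13:23583670-23621124, and its 17 cytosines near the start of its short transcript were at 4.07%. Farther inside H2bc6 a group of 45 cytosines was at 74.1% and a group of 8 at 84.4%. The 72 cytosines inside these models averaged 59.1% ± 1.69 in control and 57.6% ± 2.06 in arsenic libraries (SD, n = 5 each), with overlap. The H2bc6 locus is not among the 23 measured loci, since its low segment lies beyond 1000 bp from both ends of the model.

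A locus level below is the percentage of methylated reads among all reads of a locus in a library. Of the 23 measured loci 18 had a mean over the 10 libraries under 5%, and the range was 0.819% to 15.8%. Over all 14229 gene loci 51.2% had a mean under 5% and the median was 4.70%, so a low level is common at gene ends. The 6 highest were H4c6 at 15.8%, H2bc4 at 10.1%, H2bc12 at 7.02%, H1f1 at 6.24%, H4c3 at 5.61% and H4c8 at 4.24%. The 3 lowest were H2bc15 at 0.819%, H2bc7 at 0.823% and H2bc14 at 1.28%. H4c6 and H2bc4 were the only loci above 5% in all 10 libraries; H4c6 rests on 3 cytosines, and H2bc4 includes its 2 high ones. By family the median of the locus means was 2.10% for H1, 2.36% for H2B and 2.46% for H4, and the 2 H3 loci, H3c6 and H3c7, were at 3.99% and 2.70%.

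Low as they were, the loci were not alike in every library. H1f5, H2bc9, H1f3, H2bc7 and H1f2 stayed under 5% in each of the 10 libraries. Another 7 loci rose above 5% in 1 library only, and 10 loci had no methylated read in at least 1 library. At H2bc14, H2bc15 and H2bc11 the highest library was at least 3 times the next. The highest library was arsenic 3 at 6 loci, control 4 at 5, control 5 at 4 and control 1 at 3, and 9 of 23 loci were above 5% in control 4 and in control 5. Control 4 also had the lowest median coverage over the stretch, 30 reads, and the part of depth in these single high values was not tested.

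**Figure D3:**
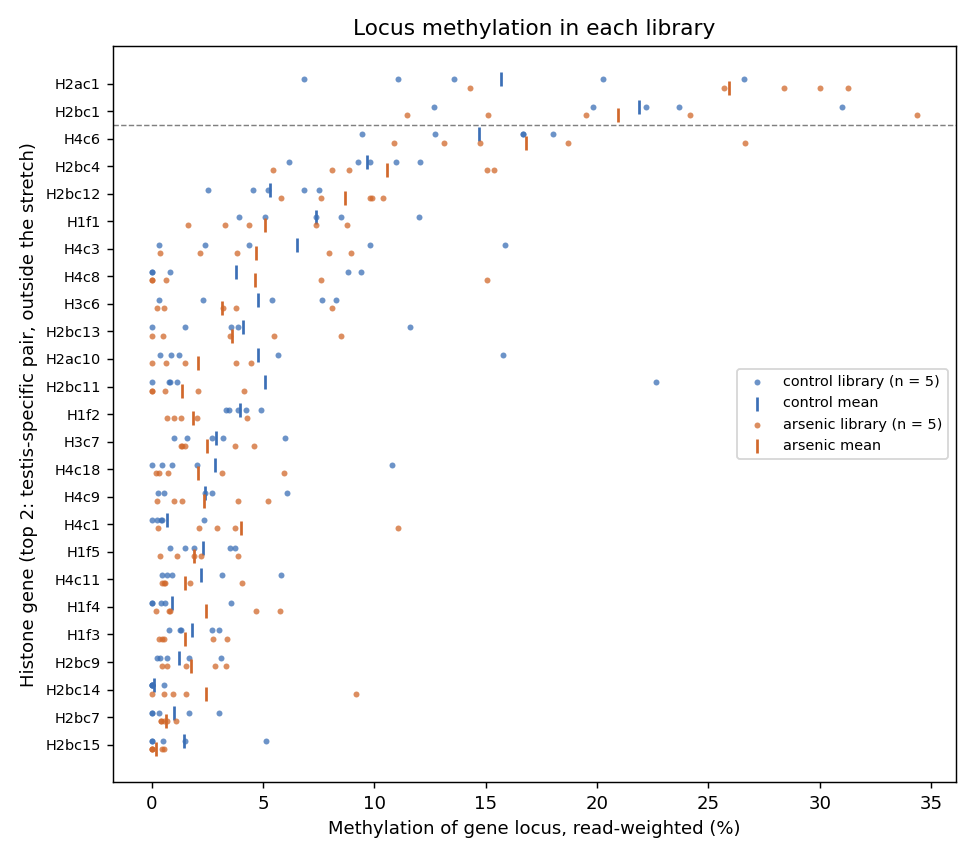
Methylation of the 23 measured histone gene loci, ordered by mean, and of the testis-specific H2bc1 and H2ac1 above the dashed line (y axis), in each library (x axis, read-weighted %). Points are libraries, 5 per group, and vertical ticks are group means. Most points of the 23 loci lie under 5%, and single libraries stand out to the right at H2bc11 and H2bc14. H2bc1 and H2ac1 reach 34.4% and 31.2%.

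The question put to these loci is whether their methylation differed between the arsenic and control libraries. Methylated and unmethylated reads of each locus entered a quasi-binomial logistic regression on group, fitted over all 14229 gene loci of the genome, with Benjamini-Hochberg (BH) adjustment over all of them. A locus was called at an adjusted p under 0.05 with a difference of at least 10 percentage points. 0 of the 23 histone loci were called, and percent called over all loci was 0. The lowest adjusted p of the 23 was 0.780, by this model. At an unadjusted p under 0.05 there were 3 histone loci, 2 higher and 1 lower in arsenic, where 5.95% of all loci had such a p. Levels were lower in arsenic at 14 and higher at 9 of the 23, and 58.1% of all loci were lower. The median difference, from reads pooled over the libraries of a group, was -0.323 percentage points over the 23 loci and -0.302 over all loci. At 0 of the 23 did the 5 control and 5 arsenic levels fail to overlap, which was so at 0.928% of all loci.

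Of the linker histone genes, H1f2, which encodes H1.2, had the smallest p of all the histone loci. Its locus was at 4.90%, 3.88%, 4.22%, 3.33% and 3.47% in control libraries 1 to 5 and at 1.02%, 2.04%, 1.34%, 0.675% and 4.27% in arsenic libraries 1 to 5. Of the arsenic libraries 4 were below every control library, and arsenic 5 lay among the controls. The means were 3.96% ± 0.630 and 1.87% ± 1.44 (SD, n = 5 each; unadjusted p = 0.0136, adjusted p = 0.780 by the quasi-binomial model with BH adjustment over all loci). H1f1 was at 7.38% ± 3.16 in control and 5.10% ± 2.93 in arsenic libraries, and H1f4, which encodes H1.4, at 0.919% ± 1.497 and 2.44% ± 2.57. Both had overlapping groups and adjusted p above that of H1f2. Pooled over reads, the H1f1 difference was -1.89 percentage points with all libraries, -0.847 without control 4 and -2.87 without control 3, and the H1f4 difference 1.63 with all libraries, 1.08 without arsenic 3 and 0.795 without arsenic 5.

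H1f2 was covered at 100 cytosines, more than any other histone locus measured, and the strands of its promoter differed. On the minus strand, the 17 cytosines in the 250 bp before the start averaged 10.9%, 6.13%, 12.8%, 3.02% and 4.99% in control libraries 1 to 5, and 1.003%, 0%, 0.210%, 0.547% and 0.452% in arsenic libraries 1 to 5. The groups did not overlap there. On the plus strand of the same 250 bp, arsenic 5 was the highest library at 27.1% and control 5 the next at 12.6%, the other 8 lay between 0.210% and 4.43%, and the groups overlapped. This window was singled out after its values were seen, and so carries no test.

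Of the 100 cytosines of H1f2 there were 9 at which the groups did not overlap (0.528% of all cytosines in the table), all on the minus strand between 245 and 35 bp before the start. In every arsenic library 0 of 20 to 26 reads were methylated at these cytosines. In the control libraries the methylated reads were 3 to 5 of 30 to 32, 1 of 15 to 16, 2 of 12 to 13, 1 to 2 of 28 to 30 and 1 of 17 to 18. Each control value thus rests on at most 5 reads, and within a library the 9 cytosines had nearly the same number of methylated reads. Neighbouring cytosines are read on the same molecules, so they are not 9 separate measurements. Their unadjusted p ran from 0.0043 to 0.013, and the adjusted p over all cytosines of the table was at least 0.662 by the quasi-binomial model. The sources do not say whether reads carried molecular identifiers, and whether some reads are copies of 1 molecule was not tested.

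**Figure D4:**
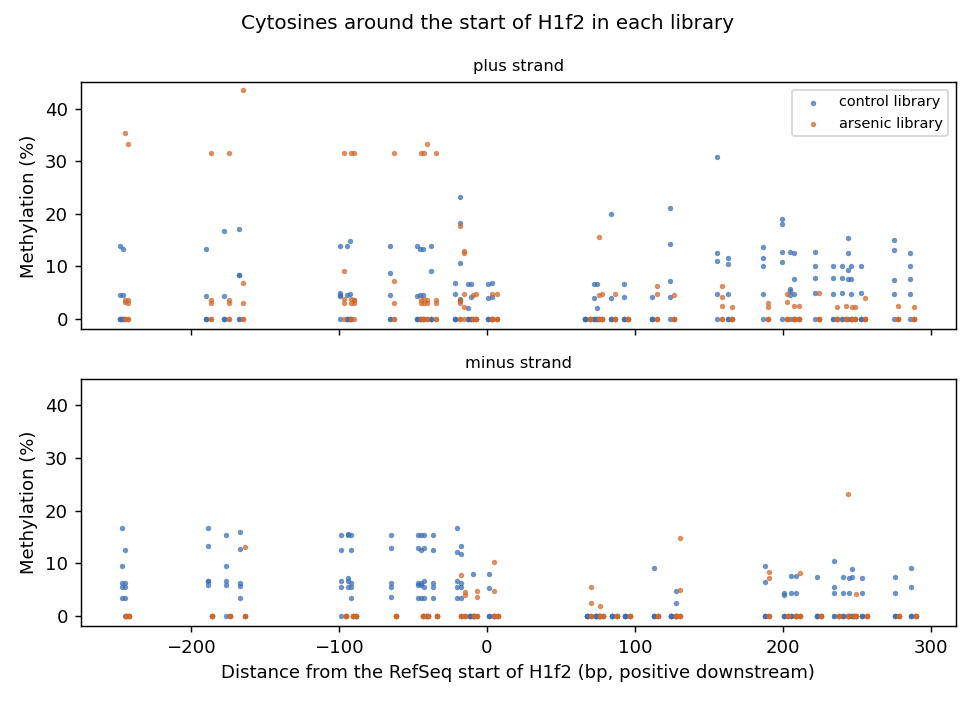
Methylation (y axis, %) of cytosines around the start of H1f2 against distance from it (x axis, bp, positive downstream), plus strand above and minus strand below. Points are libraries, shifted 1.5 bp to the left for control and to the right for arsenic. Before the start on the minus strand most arsenic points lie at 0 and control points above, while on the plus strand arsenic 5 is the highest library.

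Of the H2B genes, H2bc14 was at 0.549% in control 1 and at 0 in the other control libraries, and at 1.55%, 0.554%, 9.16%, 0% and 0.971% in arsenic libraries 1 to 5. The higher arsenic mean, 2.45% ± 3.79 against 0.110% ± 0.246 (SD, n = 5 each), came with 1 library, arsenic 3, far above the rest, and the groups overlapped (adjusted p = 0.828, quasi-binomial model). Pooled over reads the difference was 3.23 percentage points with arsenic 3 and 0.562 without it. H2bc11 was at 0.789%, 1.14%, 0.833%, 0% and 22.7% in control libraries 1 to 5 and at 2.06%, 0%, 4.17%, 0.587% and 0% in arsenic libraries 1 to 5. The direction rested on control 5: reads pooled over the groups gave -5.80 percentage points with it and 1.13 without it (adjusted p = 0.840 and 0.927, quasi-binomial model). H2bc15 was at 1.44% ± 2.17 in control and 0.200% ± 0.276 in arsenic libraries, with control 4 at 5.15%; pooled over reads its difference was -1.21 percentage points with control 4 and -0.580 without it. H2bc12, read at 4 cytosines, was at 5.34% ± 1.95 in control and 8.70% ± 1.94 in arsenic libraries, and its groups overlapped (adjusted p = 0.856, same model).

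Of the H4 genes, H4c1 was at 0.255%, 0.451%, 0.444%, 0% and 2.34% in control libraries 1 to 5 and at 2.13%, 2.92%, 3.76%, 11.1% and 0.273% in arsenic libraries 1 to 5. Of the arsenic libraries 4 exceeded 4 of the 5 controls, and arsenic 5 was as low as the controls. The means were 0.699% ± 0.938 and 4.03% ± 4.14 (SD, n = 5 each; unadjusted p = 0.0266, adjusted p = 0.828, quasi-binomial model). The strands again differed: on the plus strand arsenic 4 was at 25.1% and arsenic 3 at 8.60%, while on the minus strand they were at 0.661% and 0.727%. Pooled over reads the H4c1 difference was 3.79 percentage points with arsenic 4 and 1.82 without it. H4c6, the highest histone locus of the stretch, was at 14.7% ± 3.55 in control and 16.8% ± 6.20 in arsenic libraries. Its 3 cytosines, at chr13:23552025-23552336, lie outside the gene (chr13:23551286-23551668), and 0 lie in its promoter window. H4c3 was at 6.55% ± 6.30 and 4.67% ± 3.70, and H4c8 at 3.81% ± 4.85 and 4.66% ± 6.64, both with groups that overlapped.

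At the H3 genes and the measured H2A gene the groups overlapped too. H3c6 was at 4.79% ± 3.41 in control and 3.18% ± 3.17 in arsenic libraries, and H3c7 at 2.89% ± 1.93 and 2.50% ± 1.55 (SD, n = 5 each). H2ac10 was at 4.79% ± 6.50 and 2.08% ± 1.95, with control 5 at 15.8%.

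Cytosine by cytosine, 0 of the 2197 were called, where percent called over the whole table was 0. An unadjusted p under 0.05 was found at 176 of them, 105 lower and 71 higher in arsenic, where 7.11% of all cytosines had one. At histone gene ends the count was 59 of 575, or 10.3%, of which 41 were lower and 18 higher. Many of the 59 lay in the H1f2 locus, nearly all of those lower in arsenic. Neither the share nor the lean therefore describes histone gene ends at large. In the rest of the stretch the count was 114 of 1550, or 7.35%. Groups did not overlap at 13 of the 2197 cytosines, 9 of them the cytosines of H1f2 described above, and at 0.528% of all cytosines. Neighbouring cytosines share reads, so these counts are not of independent sites. Among gene-end cytosines the smallest p was at chr13:21735147, inside H4c11, with a level of 7.10% ± 7.64 in control libraries and 0 in every arsenic library, where control 5 was at 0 too (adjusted p = 0.662, quasi-binomial model). The next was at chr13:23739052, inside H1f2, with 8.95% ± 5.84 and 0.471% ± 1.05 (same adjusted p).

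In tiles of 1000 bp with at least 3 covered CpGs, 0 of the 149 in the stretch were called, and percent called over 166012 tiles was 0. There were 11 tiles with an unadjusted p under 0.05, 5 higher and 6 lower in arsenic, where 5.80% of all tiles had one. Away from histone genes the smallest p for a higher level was at chr13:22051001-22052000, next to a tRNA gene for serine, n-TSgct5. That tile was at 0.0912%, 0.409%, 0.226%, 0% and 1.07% in control libraries 1 to 5 and at 0.176%, 8.58%, 6.29%, 15.5% and 0.179% in arsenic libraries 1 to 5. Arsenic libraries 2, 3 and 4 stood above all controls, and arsenic 1 and 5 lay among them (adjusted p = 0.807, quasi-binomial model). The cytosines with the 3 smallest p for a higher level, at chr13:22051050, 22051072 and 22051135, all lay in this tile and were at 0 in every control library.

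Of the other 5 tiles chosen by p, 4 were low and close to tRNA genes. Lower in arsenic were chr13:22020001-22021000 near n-TRacg1, at 3.61% ± 1.66 against 1.37% ± 0.700, chr13:22026001-22027000 near n-TVcac8, at 3.95% ± 3.25 against 1.17% ± 0.712, and chr13:21710001-21711000 near n-TGgcc7, at 2.41% ± 1.31 against 1.16% ± 0.504. Higher were chr13:23437001-23438000 near n-TPagg3, at 1.02% ± 1.62 against 3.58% ± 1.87, and chr13:22308001-22309000, among vomeronasal receptor pseudogenes, at 87.7% ± 3.30 against 90.8% ± 1.59 (SD, n = 5 each). Groups overlapped in each of these tiles.

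The rest of the stretch, 1550 cytosines, was at 34.1% ± 0.568 in control and 33.8% ± 0.468 in arsenic libraries (SD, n = 5 each), a difference of -0.315 percentage points with overlap, which turned to 0.0626 without control libraries 4 and 5. Its level depended on which genes were near. Transfer RNAs (tRNAs) carry amino acids to the ribosome, and their genes are transcribed by RNA polymerase III. The stretch has 79 tRNA genes, of which 52 had a covered cytosine. The 680 cytosines near them were at 6.48% ± 0.654 in control and 5.95% ± 0.310 in arsenic libraries. Of the 52 genes 27 had a mean under 5% and 1, n-TKttt22, was at 88.1%. Some neighbouring tRNA genes share cytosines, so these genes are not all separate measurements. Around genes of the vomeronasal receptor family Vmn1r, pheromone receptors of the nose, 25 cytosines were at 87.7% ± 2.17 and 87.4% ± 1.35. Ends of other protein-coding genes were at 16.1% ± 0.822 and 15.9% ± 0.898, with the zinc finger genes Zfp184 and Zfp322a at 2.19% and 2.28% over all libraries and Gm11295 at 91.5%. Cytosines near none of these were at 62.4% ± 0.511 and 62.2% ± 0.898. Between the first and second histone blocks, where many of the tRNA genes lie, the level was 11.7% over all libraries, and in the longer gap with the receptor array it was 44.0%.

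The testis-specific pair was methylated to an intermediate level, unlike most histone loci of the stretch. H2bc1 (chr13:23933725-23934156) and H2ac1 (chr13:23934437-23934913) lie about 134 kb beyond the bounds of the stretch, and their ends that face each other are 281 bp apart. H2bc1 was at 19.8%, 12.7%, 23.7%, 31.0% and 22.2% in control libraries 1 to 5 and at 11.5%, 15.1%, 24.2%, 19.5% and 34.4% in arsenic libraries 1 to 5. H2ac1 was at 11.05%, 20.3%, 13.6%, 6.84% and 26.6% in control libraries 1 to 5 and at 14.3%, 28.4%, 31.2%, 30.0% and 25.7% in arsenic libraries 1 to 5. H2bc1 was above all 23 measured loci of the stretch in 5 of the 10 libraries and above at least 21 of them in each. H2ac1 was above all 23 in 6 libraries and above at least 19 in each. Averaged over their 31 cytosines the pair was at 21.5% ± 6.93 in control and 20.6% ± 9.31 in arsenic libraries (SD, n = 5 each), with overlap. The sign of that difference, -0.940 percentage points, was not stable: it was 1.88 with reads pooled over cytosines, 2.58 at a coverage of at least 20 and 0.815 without control libraries 4 and 5.

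Neither gene of the pair passed the test. For H2ac1 the means were 15.7% ± 7.82 and 25.9% ± 6.83, and 4 of 5 arsenic libraries were above 4 of 5 controls, with arsenic 1 low and control 5 high. Pooled over reads the difference was 12.2 percentage points, past the 10 points of the call rule (unadjusted p = 0.0266, adjusted p = 0.828, quasi-binomial model). With 1 library left out in turn, the H2ac1 difference ranged from 10.02 to 15.1 points. It rests on 7 plus-strand cytosines that span 111 bp. For H2bc1 the means were 21.9% ± 6.62 and 20.9% ± 8.90 (adjusted p = 0.989, same model).

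Strand by strand the H2bc1 values of a library disagreed. Over 12 plus-strand cytosines spanning 65 bp, control libraries 1 to 5 were at 29.7%, 4.74%, 13.01%, 21.3% and 34.7%. Over 12 minus-strand cytosines spanning 114 bp in the same place they were at 0%, 23.0%, 56.5%, 43.4% and 5.90%. Arsenic 1 and 2 were at 16.3% and 20.9% on the plus strand and at 0% and 0.656% on the minus strand. Means over the 10 libraries were 19.99% on the plus and 22.2% on the minus strand, so the strands differed within libraries and not on average. Coverage was 22 to 72 reads on the plus strand and 16 to 50 on the minus strand.

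**Figure D5:**
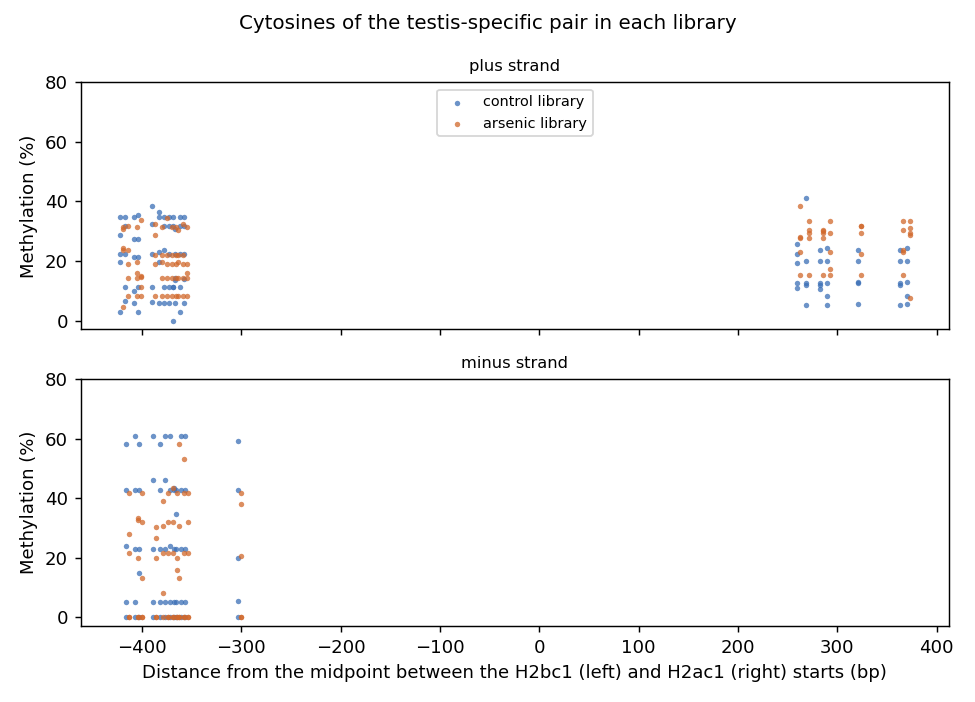
Methylation (y axis, %) of the 31 covered cytosines of H2bc1 (left) and H2ac1 (right) against distance from the midpoint between their starts (x axis, bp), plus strand above and minus strand below. Points are libraries, shifted 1.5 bp to the left for control and to the right for arsenic. Within a strand a library mostly keeps a similar level across neighbouring cytosines, with exceptions. On the minus strand of H2bc1, arsenic 3 is at 16.0% at 1 cytosine and 53.1% at another nearby. On that strand libraries range from 0% to 56.5% on average.

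All covered cytosines of the pair lie inside the short genes, 261.5 bp or more from the midpoint between their starts, and the shared promoter window has none. Over all libraries H2bc1 at 21.4% and H2ac1 at 20.8% fell within the 14.1% to 32.6% of the 7 germ cell genes. In whole testis, a lower share of cells that carry methylation and a lower level in each cell cannot be told apart. Of other linker histones of spermatids, H1f7 (H1T2), on another chromosome, was at 15.9%. That is about level with the highest locus of the stretch, H4c6 at 15.8%, which was read only outside its gene. Hils1 was at 94.7% over 8 cytosines.

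Histone genes on other chromosomes were mostly low as well. Of 19 such genes 15 were measured, 14 of them with a mean under 5%, and the highest was H1f7, followed by H1f0 at 4.31% and H2bc18 at 3.83%. None of the 15 was called, as over all loci, and 3 had an unadjusted p under 0.05, where 5.95% of all loci did, with H2bc18 lower in arsenic, at 5.87% ± 2.93 against 1.79% ± 1.224, and H2ac19 and H3c15 higher. Of 14 genes for transcription and 3' end processing of histone mRNA all were measured and none was called. Eri1, an exonuclease that trims the histone stem-loop, was at 0.595% ± 0.561 in control and 4.92% ± 4.32 in arsenic libraries, and Cstf2, a subunit of a cleavage factor, had no methylated read in any control library and averaged 2.20% ± 4.63 in the arsenic ones. Their unadjusted p were 0.00978 and 0.0414 and the adjusted p 0.780 and 0.828, by the quasi-binomial model. As levels cannot fall under 0, the Cstf2 SD beside its mean places nearly all of that methylation in a single arsenic library. Ncbp1, a cap-binding protein, had the next smallest p, at 1.58% ± 1.93 and 0.546% ± 0.421. Of 9 replacement and variant histones 8 were measured and none was called; 6 had a mean under 5%. Those with the smallest p were H1f0, the linker histone of resting cells, at 5.16% ± 1.62 in control and 3.46% ± 1.36 in arsenic libraries, H3f3a, a gene for the replacement histone H3.3, at 1.61% ± 2.36 and 4.95% ± 5.09, and H2az2, a gene for H2A.Z, at 0.931% ± 0.534 and 1.74% ± 1.88, all with overlap.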

How the data were processed

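Per the file headers the deposited table has the layout of methylKit's united libraries and holds the count of all, methylated and unmethylated reads per CpG cytosine and library, not normalised, each covered by 10 reads or more in every library. The submitters' processing notes name Trim Galore 0.6.5, Bismark 0.22.3, methylKit 1.22.0 and mm10, without settings. Library totals were 69771871 to 100355708 reads.

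Genes came from RefSeq on GRCm38.p6, the assembly of mm10. A locus was the cytosines within 1000 bp of either gene end, with at least 3 covered CpGs; locus levels pool reads, class levels weight cytosines equally. Loci, tiles and cytosines were tested with a quasi-binomial model (dispersion squeezed as in limma 3.58.1, R 4.3.3, not under 1; F test; Python 3.11.15, numpy 2.4.6, scipy 1.17.1), checked on simulated data. The p-values measure the spread between libraries, which may be technical. Members and lists were chosen with earlier results of these data known. Loci named were the 4 of smallest p in each direction, the 6 highest, the 3 lowest and the testis-specific genes; tiles, cytosines and genes of the comparison lists were the 3 of smallest p or highest level, and further ones were chosen after their values were seen. Alternatives were limma on log ratios, a binomial test, coverage of 20, other reaches and CpG minimums, a replicate block and libraries left out.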

Additional observations from a re-analysis of the deposited data

Results flagged for a closer look

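In 5 of 28 groups of 5 libraries tested, 1 library stood apart from the rest of its group by Dixon's criterion, which chance meets in about 1 group in 20 of normally distributed values; the rate for levels bounded at 0, as here, was not measured. With 4 libraries at 0 any other value meets it. At H2bc11 it was control 5, at 22.7% where the other controls were at 1.14% or less. At H2bc14 both groups had one: arsenic 3 at 9.16%, and control 1 at 0.549% where the other controls were at 0. At H4c1 it was control 5, at 2.34%, and at H1f4 control 4, at 3.55%.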

How the results depend on the processing

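No locus and no tile of the stretch was called under any alternative run, and no cytosine except by the binomial test on reads, which ignores the spread between libraries and called 58 of the 2197. With each library left out in turn the counts called stayed at 0. The difference at histone gene ends then ranged from -0.952 to -0.376 percentage points, that of the rest of the stretch from -0.499 to -0.173, and that of the testis-specific pair from -4.34 to 1.82, positive without control 3 or 4 or arsenic 1 or 2. Without control 4 and 5 together these differences were -0.0353, 0.0626 and 0.815. The pair was also at 1.88 with reads pooled over cytosines and at 2.58 with coverage of at least 20. Of the 10 loci followed through the alternatives, 2 changed sign. H2bc11 was at 1.13 without control 5 and 0.890 without control 4 and 5 (chosen for single loci after seeing the data), against -5.80, and ranged from -8.33 to 1.13 with 1 library left out. H2bc1, at -0.492, was at 0.788 with coverage of at least 20, at 2.09 without control 4 and 5, and between -4.33 and 1.36 with 1 library left out, positive without control 3 or 4 or arsenic 1, 2 or 4. The H2ac1 difference of 12.2 passed the binomial test. With a replicate block the counts called were 0 for loci, tiles and cytosines of the stretch. H2bc11 then had an adjusted p of 0.0368 by the quasi-binomial model at -5.80 points, under the 10 points of the call rule. Over gene loci, the correlations of same-numbered libraries' deviations ran from -0.0236 to 0.0101. They show no strong common shift by number, but cannot show whether the libraries were otherwise paired. The causes of these changes were not tested. Coverage of 10 to 86 reads a cytosine at H1f2 means that a level under 5% at a single cytosine rests on a few reads. The H1f2 locus levels pool 2604 to 4711 reads a library, counted once for each cytosine they cover. H2bc11, H2bc14 and H2bc15 gave no value with coverage of at least 20, and H2bc12 none with a reach of 500 bp, at least 5 CpGs or windows centred on RefSeq starts (also chosen after seeing the data), since too few CpGs were left.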
